A study of Homo sapiens with 2 samples.

Results

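The 73 autosomal genes that encode proteins of the cytosolic ribosome were examined for CpG methylation in SKNO-1 and SKNO-siAE cells. They were taken by symbol from the 18069 autosomal protein-coding genes with a MANE Select transcript (RPL or RPS with a number, RPLP0 to RPLP2 and RPSA), so the X-linked ribosomal protein genes and the genes with other names, such as FAU and RACK1, were not included. SKNO-1 is an acute myeloid leukemia line with the t(8;21) translocation, which fuses RUNX1 to RUNX1T1 and yields the RUNX1-RUNX1T1 (AML1-ETO) oncoprotein. SKNO-siAE is its derivative in which a lentiviral vector expresses an siRNA against the fusion mRNA, and both lines were grown in the same medium. Each line was measured in 1 library by MCC-Seq, in which bisulfite-converted DNA is captured with a panel of CpG regions and sequenced, so that an unmethylated cytosine reads as thymine and a methylated cytosine stays cytosine. With 1 library per line there was no replicate, and every difference below is a difference between 2 libraries. RNA was not among the values analysed here, so neither the silencing of the fusion nor the markers of the cell type could be checked.

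The ribosome joins a small subunit, which reads the mRNA, to a large subunit, which forms the peptide bond. Nearly all of its proteins are encoded by single-copy genes that are active in every growing cell, and these genes lie among a large number of processed pseudogenes, which are copies of their mRNA inserted back into the genome without the promoter. Their promoters are usually CpG islands, a kind of promoter that stays free of methylation in most tissues, and transcription starts at a C within a run of pyrimidines, the TOP motif, through which mTOR signalling controls the translation of these mRNAs. Haploinsufficiency of several members causes Diamond-Blackfan anemia, and loss of RPS14 underlies the anemia of the 5q- syndrome, so the family has particular weight in the blood.

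The start sites showed this shared pattern. A C followed by at least 4 pyrimidines stood at the annotated start of 55 of the 73 genes (75.3%), against 4.68% of all 18069 genes. The 8 sequences that follow run from 30 bases upstream to 15 bases downstream of the start in hg19 and are shown because they carry what the members have in common, with the run of pyrimidines from the start in capitals:
RPS6 (small subunit, the S6 kinase substrate): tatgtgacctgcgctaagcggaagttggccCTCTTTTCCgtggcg
RPS14 (small subunit, 5q- syndrome): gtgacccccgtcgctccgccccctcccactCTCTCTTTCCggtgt
RPS19 (small subunit, Diamond-Blackfan anemia): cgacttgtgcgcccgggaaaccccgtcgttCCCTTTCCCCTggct
RPSA (small subunit, also known as the laminin receptor): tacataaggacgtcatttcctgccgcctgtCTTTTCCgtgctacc
RPL5 (large subunit, binds 5S rRNA and MDM2): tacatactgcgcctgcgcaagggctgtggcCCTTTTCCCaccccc
RPL11 (large subunit, partner of RPL5): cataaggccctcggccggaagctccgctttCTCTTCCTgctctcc
RPL37 (large subunit): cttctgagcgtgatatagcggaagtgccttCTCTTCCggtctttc
RPLP0 (large subunit, base of the stalk): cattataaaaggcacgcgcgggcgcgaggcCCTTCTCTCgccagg

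A methylation level is the share of reads at a cytosine that were methylated, from 0 to 1, and the level of a region is the mean over its sites with at least 5 reads in each library. The promoter was taken as 1500 bp upstream to 500 bp downstream of the start, and 71 of the 73 genes had at least 5 shared sites in it (11 to 150 sites, median 80). Reads of a region were summed over its sites, so a read that covered several sites was counted at each of them. The promoters held a median of 1513 reads in SKNO-1 versus 1589 in SKNO-siAE, and the log2 ratio of their reads in SKNO-1 to SKNO-siAE ran from -1.68 (RPS2) to 0.99 (RPS21). RPS15A, the member just inside the minimum, had 11 sites, and RPS18, which lies outside it, had 0. None of the 20 pieces of 100 bp that make up the RPS18 promoter had a second copy on chromosome 6, and within 100 kb of its start the SKNO-1 library had 0 sites and the SKNO-siAE library 2.

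Ribosomal protein promoters were almost free of methylation in both lines. The median level was 0.0109 in SKNO-1 versus 0.0184 in SKNO-siAE, against 0.181 and 0.261 over the 16679 promoters measured across the genome. In 57 of the 71 genes the level was under 0.1 in both libraries (80.3%, against 34.0% of all promoters), and the share was 44.8% among the 11599 CpG-rich promoters, the class to which 67 of the 73 members belong. The median difference, SKNO-1 minus SKNO-siAE, was 0, with 35 genes above 0 and 35 below, and 68 of 71 genes lay within 0.05 (95.8%, against 55.8% of all promoters and 64.5% of the CpG-rich promoters). Genome-wide the mean promoter level was 0.331 in SKNO-1 versus 0.396 in SKNO-siAE, a mean difference of -0.07, whereas the means over the members were 0.0506 and 0.0475. A difference of 0.2 or more was seen in 0 of 71 members, where 18.0% of all promoters and 14.9% of the CpG-rich promoters passed that size. The 57 members under 0.1 in both libraries could not reach that size. The backgrounds were not matched for level, so these shares do not separate stability from a low level.

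**Figure D1:**
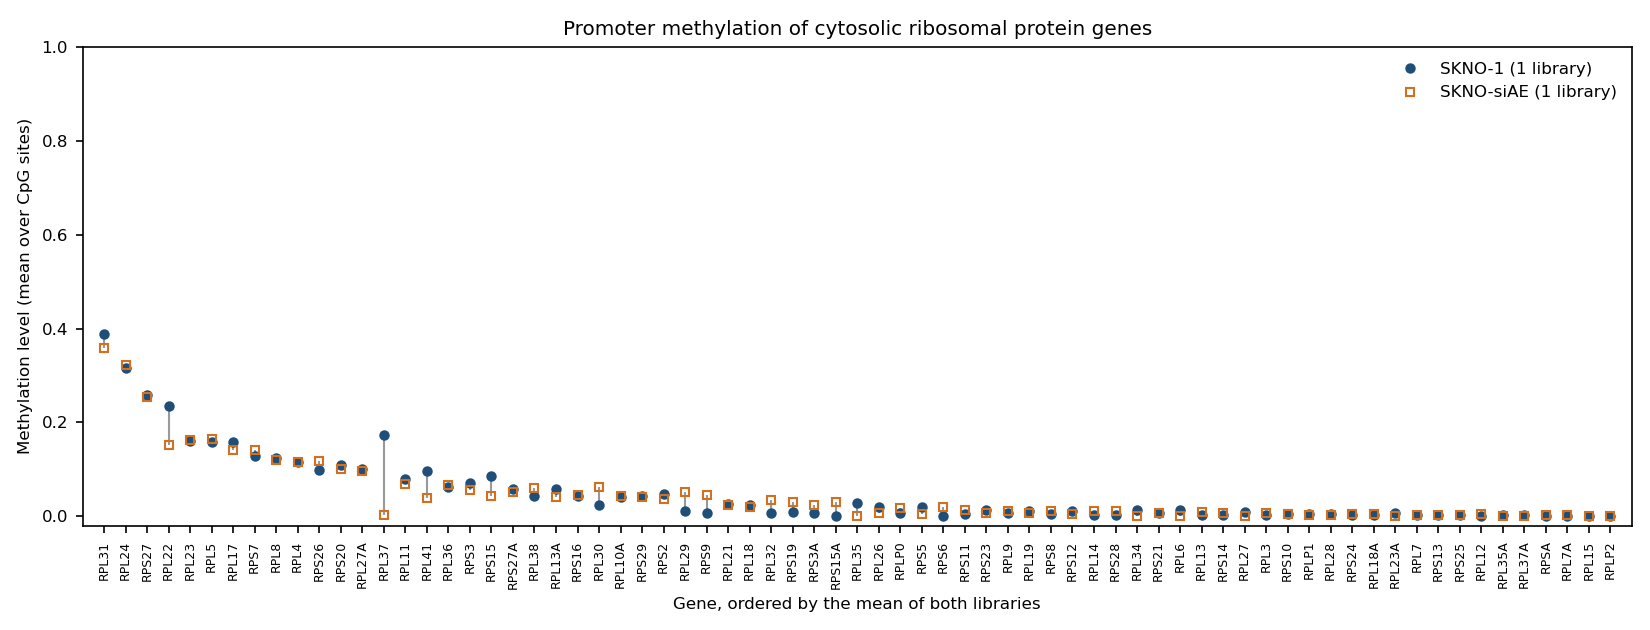
Promoter methylation level of the 71 ribosomal protein genes with 5 or more shared sites, from 0 to 1, with filled circles for the SKNO-1 library and open squares for the SKNO-siAE library, joined by a grey line. The circles and squares lie close together and near 0 for most genes, and RPL37 (0.174 and 0.00344) and RPL22 (0.235 and 0.152) have the longest lines.

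Genes of both subunits showed this. The median over the 28 small-subunit promoters was 0.00850 in SKNO-1 versus 0.0227 in SKNO-siAE, and all 28 lay within 0.05 between the libraries. The 43 large-subunit promoters had medians of 0.0136 and 0.0117, and 40 of them lay within 0.05. Of the genes mutated in Diamond-Blackfan anemia or lost in the 5q- syndrome, 9 were measured, and 0 of them differed by 0.2 or more, where 18.0% of all promoters did. Their level was under 0.1 in both lines in 6 of the 9, and these 6 could not differ by 0.2. RPS14, whose loss is central to the 5q- syndrome, had promoter levels of 0.00348 and 0.00773 in SKNO-1 and SKNO-siAE. RPS19, the gene most often mutated in Diamond-Blackfan anemia, stood at 0.00932 and 0.0295, RPS10 at 0.00452 and 0.00403, and RPS24 at 0.00292 and 0.00439. RPL35A was at 0.00253 and 0.00119, and the pair that restrains MDM2 was higher in both lines, RPL5 at 0.158 and 0.165 and RPL11 at 0.0806 and 0.0695. The remaining members of this list were RPS7, at 0.129 and 0.141, and RPS26, at 0.0991 and 0.117.

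The acidic stalk recruits the elongation factors to the ribosome, and its genes had promoter levels under 0.02 in both lines. RPLP2 had 0 methylated of 1171 reads in SKNO-1 versus 0 of 1021 in SKNO-siAE, which allows a level of up to 0.00256 and 0.00294. RPLP0 had levels of 0.00727 and 0.0184, and RPLP1 of 0.00471 and 0.00331. RPSA, a small-subunit protein, had 0 methylated of 3170 reads in SKNO-1, which allows up to 0.000946, and a level of 0.00267 in SKNO-siAE. RPS27A, which is made as a fusion with ubiquitin, had 0.0583 and 0.0521. Intervals and limits of this kind cover counting error only, since reads are copies made by PCR. They also treat the calls of a read at neighbouring sites as independent, so they are too narrow.

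In the 3 members with the highest promoter levels, the methylated sites lay upstream and ended before the start. RPL31, RPL24 and RPS27 had levels of 0.389 and 0.359, 0.316 and 0.322, and 0.259 and 0.253 in SKNO-1 and SKNO-siAE. At RPL31 the 45 sites from 1100 to 301 bp upstream had levels of 0.871 and 0.805, and the 56 sites from 300 bp upstream to 499 bp downstream had 0.00118 and 0.00102. RPL24 had 0.920 and 0.933 over 34 sites more than 500 and up to 1200 bp upstream, and 0 (0 of 1337 reads, which allows up to 0.00224) and 0.00256 from 300 bp upstream to 499 bp downstream. RPS27, a zinc-finger protein of the small subunit, had 1.0 and 0.983 over 19 sites from 1300 to 1001 bp upstream, against 0.00235 and 0.00127 around the start. Over the 26 members with sites from 1500 to 1001 bp upstream the level there was 0.598 and 0.60, and over the 41 with sites in the next 500 bp it was 0.218 and 0.210. All 71 had sites in the 500 bp before the start, at 0.0305 and 0.0245, and in the 500 bp after it, at 0.00393 and 0.00295. Within 200 bp of the start, 2574 of 2707 sites (95.1%) had no methylated read in either library, and the pooled share was 0.474% of 55888 reads in SKNO-1 (95% Wilson interval 0.420 to 0.535%) and 0.346% of 55741 reads in SKNO-siAE (0.301 to 0.399%). Mitochondrial cytosines, which serve as a rough gauge of unconverted bases, read as methylated in 0.351% and 0.378%. The conversion rates that the paper reports leave a larger unconverted share in each library than the pooled share near the start. Shares this low could therefore not be told apart from incomplete conversion.

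Among the 10 genes with the widest promoter differences, RPL37 stood apart. RPL37 encodes a zinc-finger protein of the large subunit, and its promoter had a level of 0.174 in SKNO-1 versus 0.00344 in SKNO-siAE over 97 sites, a difference of 0.171, short of 0.2. In the window that ends at the start it was 0.21 and passed 0.2. The promoter had 2848 reads in SKNO-1 versus 1542 in SKNO-siAE (log2 ratio 0.89, not scaled). All sites of chromosome 5 had 3957525 and 3121414 reads, a log2 ratio of 0.32 after scaling to the totals over the autosomes. The part of depth in the methylation difference was not tested. The sites of the + strand gave 0.186 and 0 and those of the - strand 0.161 and 0.00741, so both strands carried the difference. With reads pooled over the window, which weights the deep sites near the start, it was 0.07. The difference narrowed toward the start. From 600 to 401 bp upstream the level was 0.602 in SKNO-1 versus 0.0133 in SKNO-siAE over 25 sites, and 14 of these passed the test of single sites (2-sided Fisher's exact test, Benjamini-Hochberg over all 3168726 shared sites, adjusted p under 0.05 and a difference of 0.2 or more, smallest adjusted p = 4.46e-07). In steps of 100 bp from 600 bp upstream, the level in SKNO-1 was 0.90, 0.403, 0.255 and 0.0571, while in SKNO-siAE it was 0.0235 or less in each. From 400 bp upstream to the start the level was 0.0343 in SKNO-1, and 0 of 836 reads were methylated in SKNO-siAE, which allows up to 0.00359. The stretches named by distance were picked with the levels in view.

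The outer stretch and the 200 bp next to the start are shown because the lines differed widely in the first and little in the second, and the 200 bp between them are left out. The first sequence is the outer stretch (hg19 chr5:40835725-40835924, - strand, upstream of RPL37 and in no annotated exon), with levels of 0.602 and 0.0133, and the second the 200 bp next to the start (chr5:40835325-40835524, - strand), with 0.0112 and 0. Capitals mark the CpGs that had a shared site on either strand, 13 in the first and 22 in the second:
RPL37, 600 to 401 bp upstream: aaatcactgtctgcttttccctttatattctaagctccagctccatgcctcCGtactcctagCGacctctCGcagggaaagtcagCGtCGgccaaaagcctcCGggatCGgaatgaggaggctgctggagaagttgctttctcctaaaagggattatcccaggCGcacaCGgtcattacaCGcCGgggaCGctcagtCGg
RPL37, 200 to 1 bp upstream: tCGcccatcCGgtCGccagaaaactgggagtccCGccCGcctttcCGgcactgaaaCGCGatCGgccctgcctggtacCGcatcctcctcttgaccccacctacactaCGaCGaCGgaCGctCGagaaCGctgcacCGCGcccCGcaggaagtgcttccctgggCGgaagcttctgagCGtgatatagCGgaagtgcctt

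The next widest differences toward SKNO-1 were in RPL22, RPL41, RPS15 and RPL31. RPL22, a large-subunit protein that also binds cellular and viral RNAs, had 0.235 in SKNO-1 versus 0.152 in SKNO-siAE. Its 16 sites from 1100 to 601 bp upstream had 0.771 and 0.413, with 8 sites past the test of single sites, and its 56 sites from 600 bp upstream to 499 bp downstream had 0.00630 and 0.00558. RPL41, the smallest ribosomal protein, had 0.0968 and 0.0398 over the promoter and 0.569 and 0.270 over 11 sites from 1000 to 701 bp upstream, where none passed that test (smallest adjusted p = 0.0505, Fisher's exact test). RPS15, a small-subunit protein, had 0.0851 and 0.0425, all of its 104 sites lying within 500 bp of the start, with 8 sites called higher and 2 lower. RPL31 completed this side with a difference of 0.03.

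On the side of more methylation in SKNO-siAE the differences were smaller. RPL29 had promoter levels of 0.0109 in SKNO-1 versus 0.0510 in SKNO-siAE, and 4 sites from 1500 to 1201 bp upstream, at 0.152 and 0.701, held 3 called sites. RPS9 had 0.00629 and 0.0460, RPL30 0.0246 and 0.0622, RPS15A 0 (0 of 78 reads, which allows up to 0.0385) and 0.0303 over its 11 sites, and RPL32 0.00607 and 0.0343. RPL30 held 7 sites called lower in SKNO-1 and 2 called higher. In the outer window alone, more than 500 bp upstream, 37 members had at least 5 sites, and 3 were higher in SKNO-1 by 0.2 or more, RPL37 (0.900 and 0.0235), RPL41 (0.571 and 0.236) and RPL22 (0.749 and 0.491), where 5.95% of all genes passed. The members lower there by 0.2 or more were RPS9, at 0.0494 and 0.494, and RPS3A, at 0.122 and 0.373, where 17.7% of all genes passed. Of the 6015 single sites in member promoters, 64 were called higher in SKNO-1, where the genome-wide share in promoters was 3.73%, and 43 lower, where that share was 10.0%; the member shares were 1.06% and 0.715%.

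**Figure D2:**
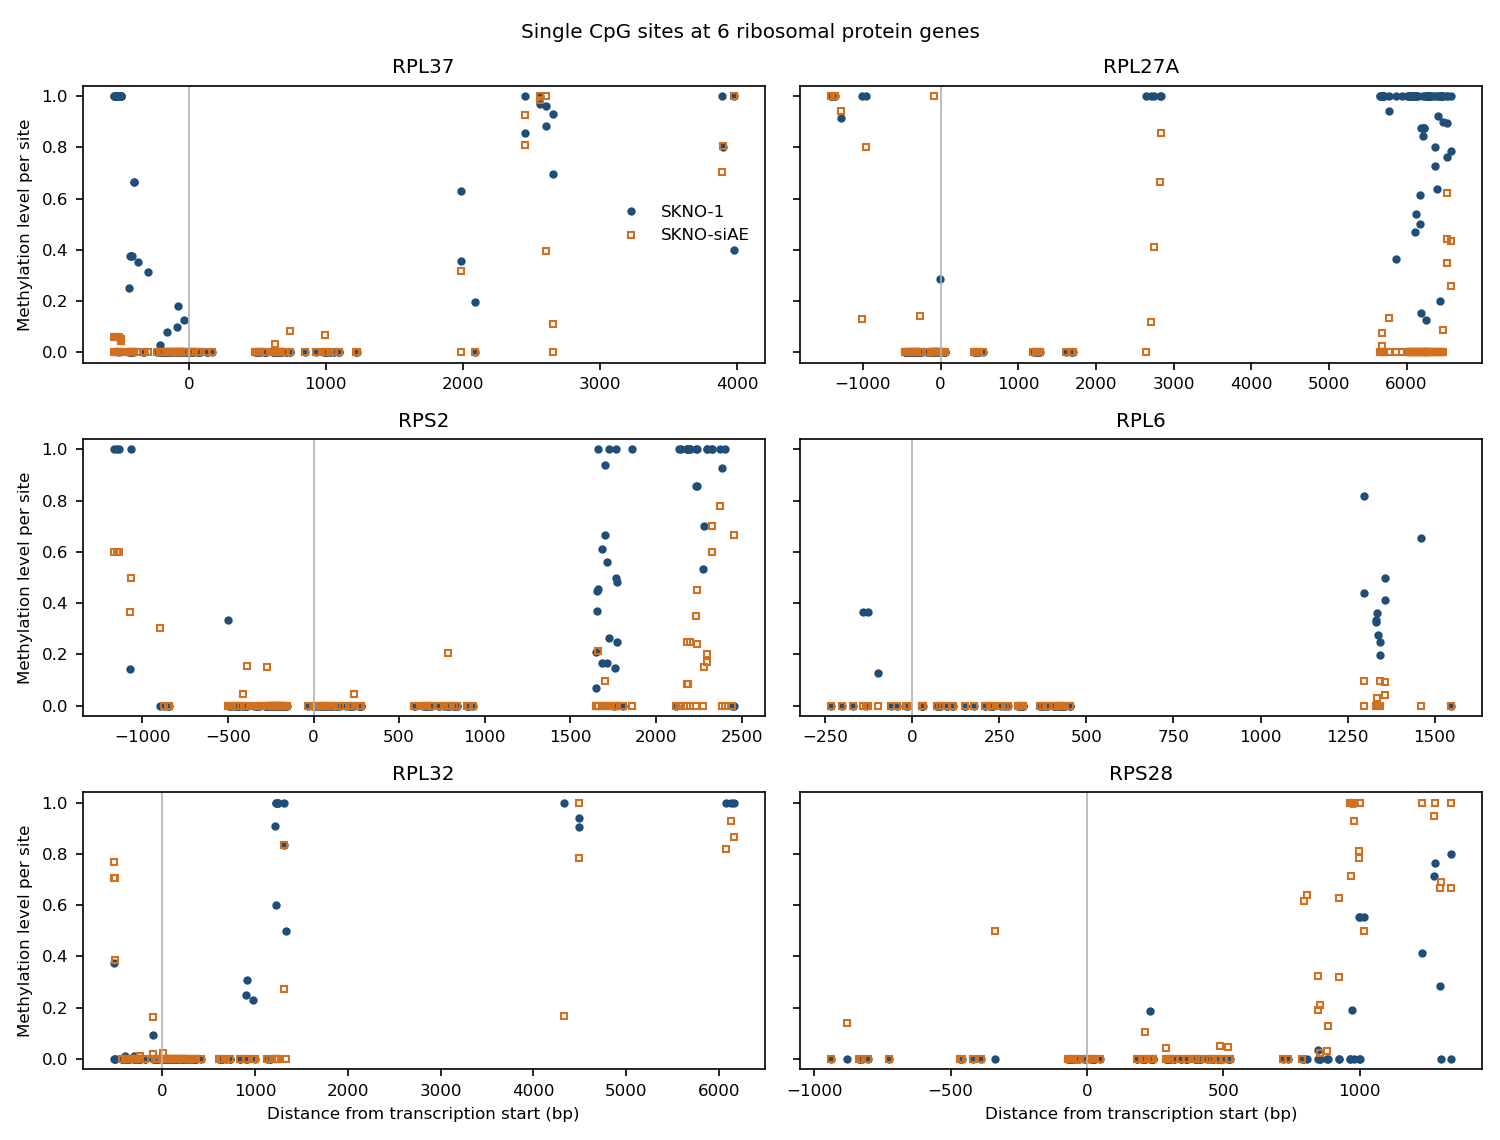
Methylation level of each shared CpG site, from 0 to 1, by distance from the transcription start at RPL37, RPL27A, RPS2, RPL6, RPL32 and RPS28, with filled circles for SKNO-1 and open squares for SKNO-siAE, 1 library each. Sites around the start lie at or near 0 in both, and the libraries separate in the outer promoter of RPL37 (0.602 and 0.0133), near the end of RPL27A (0.899 and 0.00481) and in the opposite direction near the end of RPS28 (0.342 and 0.833).

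Downstream of the promoter the libraries were less alike. The gene body, from 500 bp downstream of the start to the end of the transcript, had at least 5 shared sites in 65 of the 73 genes. RPL11 had exactly 5 and RPS29 6, while RPL29 had 2 (levels of 0.0690 and 0.812), RPL27 1, and RPS25, RPS27, RPL34 and RPL26 had 0, as did RPS18. The median body level of the 65 genes was 0.335 in SKNO-1 versus 0.288 in SKNO-siAE, against 0.722 and 0.790 over 16011 genes. The median difference was 0.05, and 49 of 65 members were higher in SKNO-1 (75.4%), while over all genes the median difference was -0.02 and 35.8% were higher, and over genes with CpG-rich promoters it was -0.01 and 38.5%. The large subunit had 32 of 39 bodies above 0 and the small subunit 17 of 26. Taken apart, introns had a median difference of 0.06, with 43 of 57 genes above 0, and exons a median of 0.04 with 35 of 50. With reads pooled over each body, 40 of the 65 members were higher in SKNO-1 and the median difference was 0.0347. Over the whole transcript the median was 0.0216, with 54 of 71 members above 0.

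The body is short in many members, so distance was held fixed as well, a choice made after the values were seen. To 5000 bp from the start, 47 of 64 members (73.4%) were higher in SKNO-1 against 38.1% of all genes and 40.1% of those with CpG-rich promoters. The widest bins were 2250 to 2499 bp downstream, where 77 sites of 15 members had 0.752 in SKNO-1 versus 0.523 in SKNO-siAE, and 2000 to 2249 bp, where 130 sites of 19 members had 0.756 and 0.581. Genes with CpG-rich promoters had 0.708 and 0.744, and 0.681 and 0.721, in these bins. Of the 2479 single sites in member bodies, 299 (12.1%) were called higher in SKNO-1, where the genome-wide share in bodies was 4.59%, and 64 (2.58%) lower, where it was 10.6%.

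A simple measure of where the unmethylated region ended is the distance from the start to the nearest site with a level of at least 0.5. It rests on single sites of at least 5 reads and was chosen after the values were seen. Downstream, this site was nearer in SKNO-1 in 26 of 59 members, nearer in SKNO-siAE in 9 and at the same position in 24, with medians of 2012 and 2126 bp. Among genes with CpG-rich promoters it was nearer in SKNO-1 in 17.4% and nearer in SKNO-siAE in 26.6%, against 44.1% and 15.3% of the members. Upstream, it was nearer in SKNO-1 in 11 of 53 members, nearer in SKNO-siAE in 14 and equal in 28, or 20.8%, 26.4% and 52.8%, against 19.9%, 31.2% and 48.9% among genes with CpG-rich promoters. With sites of at least 10 reads the downstream counts were 20 and 5, and the upstream counts 7 and 9.

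A body difference of 0.2 or more was found in 5 members. The 4 that were higher in SKNO-1 (2.57% of all bodies passed in that direction) were RPL27A, RPL6, RPS2 and RPL32, and the 1 that was lower (10.7% of all bodies) was RPS28. RPL27A, a large-subunit protein, had a body level of 0.785 in SKNO-1 versus 0.0537 in SKNO-siAE over 90 sites, the widest difference of the 65 members, 0.73. Its reads were 1525 and 2020, and the strands gave 0.730 and 0.0606 (+) and 0.866 and 0.0438 (-). The 23 sites of its first 1800 bp had 0 methylated of 304 and 525 reads, which allows up to 0.00987 and 0.00571. Most of the called sites lay in the last exon, at hg19 chr11:8709939-8710838, in the 3′ UTR of the MANE transcript, where 67 sites had 0.899 and 0.00481 and 61 of them were called (smallest adjusted p = 4.20e-21, Fisher's exact test). In an intron, 5 sites from 2600 to 2899 bp downstream had 1.0 and 0.411 with 3 called. The promoter of RPL27A had 0.10 and 0.0974. With the body ended at 5000 bp its difference was 0.17, and over its introns alone 0.29.

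RPS2, a small-subunit protein at the mRNA entry side, had 0.414 in SKNO-1 versus 0.0753 in SKNO-siAE over 73 body sites, with 1009 and 1467 reads. Its promoter had the most uneven depth of the family, 684 and 2197 reads, and levels of 0.0481 and 0.0362. Some of its introns hold small nucleolar RNAs, which guide the pseudouridylation of rRNA. The 22 sites from 1600 to 1899 bp downstream, around SNORA64, had 0.468 and 0.0141 with 13 called, and the 21 sites from 2100 to 2399 bp, which overlap SNORA10 and of which 16 lie in RPS2 exons, had 0.899 and 0.205 with 16 called. RPL32, a large-subunit protein, had 0.426 and 0.167 over 34 sites, with 424 and 436 reads, and 9 sites from 1200 to 1399 bp downstream, which overlap an end of SNORA7A, had 0.871 and 0.123 with 5 called. Reads from a gene and from the small RNA within its intron come from the same DNA, so methylation there belongs to both. The RPL32 stretch also overlaps another annotated protein-coding gene, so its sites belong to that gene as well.

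The exons of RPS2 had 0.795 and 0.171 over 22 body sites and its introns 0.249 and 0.0343 over 51, and those of RPL32 had 0.875 and 0.653 over 4 and 0.366 and 0.102 over 30. Parts of these introns are shown because their sites differed between the lines. The first is the RPS2 intron with SNORA64 (hg19 chr16:2012911-2013149, - strand), where 16 sites had 0.485 in SKNO-1 versus 0.00605 in SKNO-siAE, and the second the last 150 bp of the RPL32 intron with SNORA7A (chr3:12881742-12881891, - strand), where 8 sites had 0.918 and 0.138. Capitals mark the CpGs with a shared site on either strand:
RPS2 intron: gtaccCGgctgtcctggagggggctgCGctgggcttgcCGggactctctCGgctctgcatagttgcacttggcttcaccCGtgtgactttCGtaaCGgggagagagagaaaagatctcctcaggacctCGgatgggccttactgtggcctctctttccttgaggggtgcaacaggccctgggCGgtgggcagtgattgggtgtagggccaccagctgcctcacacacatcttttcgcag
RPL32 intron: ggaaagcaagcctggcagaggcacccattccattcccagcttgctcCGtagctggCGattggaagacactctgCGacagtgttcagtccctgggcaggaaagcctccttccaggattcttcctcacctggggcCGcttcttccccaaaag

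RPL6, a large-subunit protein, had 0.380 in SKNO-1 versus 0.0294 in SKNO-siAE over 12 body sites, with 682 and 475 reads. The difference came from 11 sites from 1200 to 1499 bp downstream, 10 of them in an exon, with 0.415 and 0.0321 and 8 called, while the first 500 bp had 0 methylated of 877 and 864 reads, which allows up to 0.00342 and 0.00347. RPS28, a small-subunit protein, ran the other way, with 0.196 in SKNO-1 versus 0.539 in SKNO-siAE over 35 sites and 454 and 801 reads. Its last 20 sites, from 900 to 1399 bp downstream in the last exon, had 0.342 and 0.833 with 7 called lower in SKNO-1, and this stretch overlaps the neighbouring gene KANK3, so the sites belong to both genes. Over their whole chromosomes (11, 12, 16, 3 and 19) the log2 ratio of reads, scaled to the totals over the autosomes, was between -0.10 and 0.18. The part of depth in these body differences was not tested. Counted over the whole transcript, which adds the first 500 bp, the differences of RPL6, RPL32 and RPS28 were 0.07, 0.12 and -0.15 and no longer passed 0.2.

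**Figure D3:**
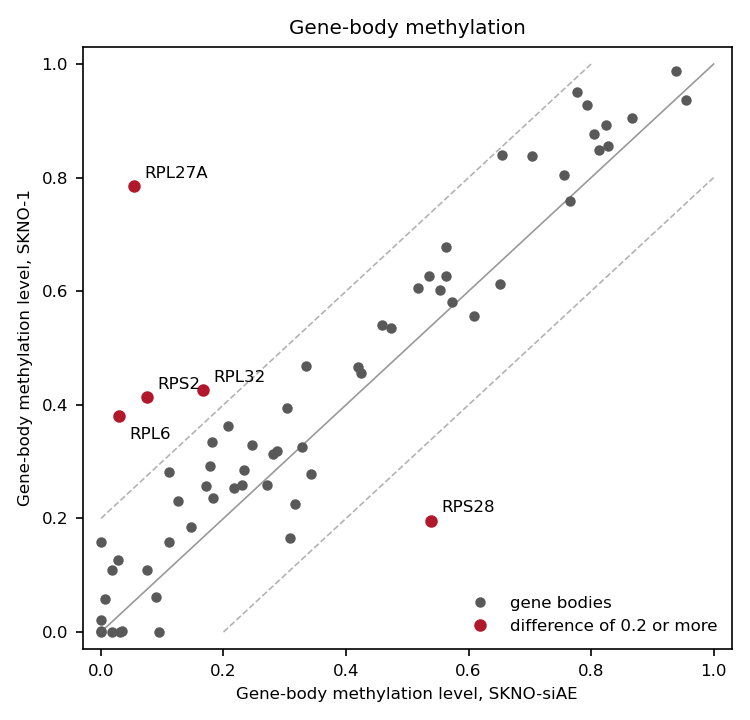
Gene-body methylation level in SKNO-1 (vertical axis, 0 to 1) against SKNO-siAE (horizontal axis, 0 to 1) for the 65 ribosomal protein genes with 5 or more shared body sites, 1 point per gene, with a solid line of equal levels and dashed lines at a difference of 0.2. The 5 genes beyond the dashed lines are in red and named, and 49 of the 65 points lie above the solid line.

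Some of the genes of clinical interest had wide body differences below 0.2. RPS24 had 0.840 in SKNO-1 versus 0.654 in SKNO-siAE over 14 sites, RPL35A 0.952 and 0.777 over 23, RPL5 0.678 and 0.563 over 25, and RPS19 0.231 and 0.125 over 26. RPS14 ran the other way, with 0.166 and 0.308 over 32 sites and 5 sites called lower. RPS7 had 0.877 and 0.804, RPS10 0.580 and 0.573, RPS26 0.279 and 0.343, and RPL11 had no methylated read over its 5 sites (0 of 35 and 42 reads, which allows up to 0.0857 and 0.0714). Of the stalk genes, RPLP0 had 0.892 and 0.825, RPLP1 0.110 and 0.0746, and RPLP2 0.805 and 0.756. RPSA had 0.535 and 0.473, and RPS27A 0 of 388 reads (up to 0.00773) in SKNO-1 and a level of 0.0313 in SKNO-siAE.

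Some motifs were more frequent near the starts of the members than near those of all genes, and the CpGs inside the motifs had low levels. From 250 bp upstream to 50 bp downstream of the start, on both strands, CCGGAAG, the core of the ETS and GABP site, was found in 34.2% of members and 14.3% of all genes, and GATGGCG, part of the YY1 site, in 21.9% and 5.99%. GCATGCG, part of the NRF1 site, was in 11% and 5.08%, TGTGGT, the core of the RUNX site, in 16.4% and 10.5%, GGGCGG, the core of the SP1 site, in 57.5% and 62.7%, CACGTG, the E-box of MYC, in 6.85% and 8.76%, and TATAAA in 8.22% and 9.46%. TGTGGT and TATAAA hold no CpG. At the CpGs within CCGGAAG the members had levels of 0.00548 in SKNO-1 versus 0.0207 in SKNO-siAE over 38 sites, and all genes 0.0936 and 0.103. With sites of at least 10 reads the member levels were 0.00868 and 0.00503, so the order of the lines turned. At those within GGGCGG the members had 0.0195 (0.00987 with sites of at least 10 reads) and 0 over 76 sites, and all genes 0.179 and 0.244. Within GATGGCG the member levels were 0 and 0.00815 over 23 sites, within GCATGCG 0.00278 and 0 over 15 sites, and within CACGTG there was no methylated read at 8 sites (157 and 212 reads, which allows up to 0.0191 and 0.0142). For the other zeros, the reads allow a level of up to 0.00200 in SKNO-siAE for GGGCGG, 0.00699 in SKNO-1 for GATGGCG and 0.00492 in SKNO-siAE for GCATGCG. These letters describe the sequence and do not show that a factor was bound. A second protein-coding gene started within 1500 bp on the opposite strand, pointing away, in 13 of 73 members (17.8%), against 10.1% of all genes.

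In the other lists of translation genes, the level was under 0.1 in both lines in 15 of 20 translation factors and other genes with TOP mRNAs, 20 of 23 ribosome biogenesis factors and 51 of 75 mitochondrial ribosomal protein genes. These shares were 75%, 87.0% and 68%, so low promoters were not particular to the members (80.3%). The share was 34.0% of all promoters and 44.8% of the CpG-rich promoters. The highest in these lists were EEF1A2, the elongation factor of muscle and neurons, at 0.75 and 0.790, IPO5, an import receptor, at 0.495 and 0.580, and MRPS6, at 0.524 and 0.386, all named with their values in view. EIF6, which keeps the subunits apart, had 0.268 and 0.244, and FBL, the methyltransferase fibrillarin, 0.238 and 0.152. Of the 20 translation factors and other genes with TOP mRNAs, 1 differed by 0.2 or more, EEF2, the translocase of elongation, at 0.0180 in SKNO-1 versus 0.260 in SKNO-siAE (646 and 1639 reads). Of 23 ribosome biogenesis factors 0 did so, and of 75 mitochondrial ribosomal protein genes 1 did, MRPS36, at 0.00256 and 0.223 (791 and 294 reads). These counts stand against the 18.0% of all promoters, a background that was not matched for level. The lists' median levels were 0.00788 and 0.0210, 0.00747 and 0.0125, and 0.0273 and 0.0322. The paralogs with an L ending, several of which are expressed mainly in testis or muscle, were more varied, with medians of 0.0799 and 0.255 over 8 genes. RPL10L had 0.899 and 0.952, RPL3L, the paralog of striated muscle, 0.755 and 0.811, and RPL39L 0.70 and 0.527, and RPL26L1 was the 1 gene past 0.2, at 0.0166 in SKNO-1 versus 0.359 in SKNO-siAE. Within 500 bp of the start none of EEF2, MRPS36 and RPL26L1 passed 0.2, and RPL26L1 did not with sites of at least 10 reads.

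The processed pseudogenes of ribosomal protein genes, which are copies of the mRNA without the promoter, were highly methylated. Of 1494 autosomal pseudogenes named after a cytosolic ribosomal protein gene, 249 had at least 5 shared sites (13 of them copies of X-linked genes that are not members), and their median level was 0.920 in SKNO-1 versus 0.943 in SKNO-siAE. A level of 0.8 or more was found in 179 of them in SKNO-1 and in 211 in SKNO-siAE, and a level under 0.1 in 6 and 2. The median difference was -0.02. Over all gene bodies it was also -0.02, and the median levels were 0.722 and 0.790. A difference of 0.2 or more was found upward in SKNO-1 in 2 of the 249 (0.803%), RPS2P32 (0.974 and 0.332 over 53 sites) and RPS21P8 (0.340 and 0.133 over 14 sites), and downward in 24 (9.64%). Among all gene bodies 2.57% passed upward and 10.7% downward, so the downward share was near that background. The widest of the 24 was RPL12P4, at 0.125 in SKNO-1 versus 0.966 in SKNO-siAE over 8 sites with 56 and 79 reads. RPL10P19 had 0.172 and 0.918 over 82 sites and RPSAP52 0.0941 and 0.809 over 181 sites, and both are long annotated loci and not only the copy of the mRNA.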

How the data were processed

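DNA methylation was measured by MCC-Seq in 1 library of SKNO-1 and 1 of SKNO-siAE. Per the study's methods, bisulfite-converted DNA was captured with a Roche NimbleGen SeqCap Epi panel, sequenced in paired reads of 125 bp, trimmed and aligned to hg19 with BSMAP (version 2.73; cutadapt 1.4.2 is among the tools in the submitters' processing notes). The authors deposited counts of methylated and unmethylated reads per CpG cytosine, made from uniquely mapped reads, with at least 5 reads per site. SKNO-1 had 4713346 sites (mean depth 17.7) and SKNO-siAE 4694016 (17.5), and 3168726 were shared. No level was normalized for depth, since a level is a ratio within a library. The log2 read ratios of whole chromosomes were scaled to the totals over the autosomes, and those of promoters were not scaled. Strands were kept apart, so 2 cytosines of a CpG count as 2 sites.

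Gene models were MANE Select transcripts of GENCODE 44 lifted to hg19, and the reference sequence was GRCh37. Levels, differences and 95% Wilson intervals were computed with Python 3.11.15, numpy 2.4.6 and pandas 2.3.3, and single sites with a 2-sided Fisher's exact test checked against scipy 1.17.1 and on simulated data. A promoter counted as CpG-rich when a 500 bp window within 900 bp upstream to 400 bp downstream had at least 55% GC and an observed-to-expected CpG ratio of at least 0.75. Named genes were those with a promoter or body difference of 0.2 or more, the 5 widest promoter differences in each direction, the 3 highest promoter levels, the disease, stalk and ubiquitin-fusion genes, the listed genes past 0.2 and the members at the minimum of sites; other genes were named with their values in view. The members and lists were chosen with earlier results of these data known. Pooled reads, strands merged or apart, 10 reads, other windows and other thresholds were tried as alternatives. Other parts of the captured genome were used only as background. Some items are not reported here.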

Additional observations from a re-analysis of the deposited data

How the results depend on the processing

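No paired analysis was possible because each cell line had 1 library. Of 168 values recomputed under an alternative, 107 moved by less than their counting interval (for counts, stayed within 1.5 times), 61 moved further and 0 changed sign. Only differences could change sign, since levels and counts cannot be negative, and a median of 0 has no sign to change. The order of the lines could still turn between levels, as it did for CCGGAAG. The mean promoter level of the members (0.0506 in SKNO-1, 0.0475 in SKNO-siAE) became 0.0563 and 0.0517 with 10 or more reads per site, 0.0631 and 0.0580 with pooled reads, 0.0493 and 0.0461 with strands merged, 0.0584 and 0.0547 on the + strand, 0.0479 and 0.0446 on the - strand, 0.0870 and 0.0834 from 1500 bp upstream to the start, and 0.0171 and 0.0144 within 500 bp of the start. The count of members higher by 0.2 or more, 0, became 1 (RPL37, 0.210) in the window that ends at the start, and 1 with a difference of 0.1. The median body difference of 0.0492 became 0.0347 with pooled reads, 0.0216 over the whole transcript and 0.0552 over introns. The count of bodies above 0, 49 of 65, became 40 of 65 with pooled reads. The 4 bodies higher in SKNO-1 became 2 over the whole transcript (RPL6 and RPL32 lost the call) and 16 at a difference of 0.1, and the 1 lower became 2 with pooled reads, with strands merged or at a difference of 0.1, and 0 over the whole transcript or over introns, where RPS28 had 2 sites. With 10 or more reads, the difference in the 500 bp before the start went from 0.006 to 0.0089, the CCGGAAG level in SKNO-siAE to 0.00503 (0.00868 in SKNO-1, so that SKNO-1 was then higher) and the GGGCGG level in SKNO-1 to 0.00987, the pseudogene medians to 0.922 and 0.945, the nearest methylated site was nearer in SKNO-1 in 7 and in SKNO-siAE in 9 members upstream and in SKNO-siAE in 5 downstream, the mitochondrial list gained 1 promoter higher in SKNO-1, and the L paralogs had 0 lower. Within 500 bp of the start the mitochondrial list, the L paralogs and the translation factors had 0 lower. The pseudogene medians were 0.915 and 0.938 with strands merged, and 0.926 in SKNO-1 for those up to 3 kb. That length limit, the distance limit of 5000 bp and the 10-read setting for nearest sites were chosen after seeing the data. Whole transcripts add the unmethylated first 500 bp; the cause of the other shifts was not tested. The depth limits what single sites can show: the median shared site had 16 reads in SKNO-1 versus 15 in SKNO-siAE.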
